A study of Mus musculus with 3 samples.

Results

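Septins are GTP-binding proteins that assemble into rods and filaments at the cell cortex, where they bind actin filaments and membranes and serve as scaffolds and diffusion barriers. A rod is built from subunits of distinct subgroups: Sept7 forms a subgroup of its own, Sept2, Sept4 and Sept5 belong to the Sept2 subgroup, Sept6, Sept8, Sept10 and Sept11 to the Sept6 subgroup, and Sept9 to the Sept3 subgroup. Serum response factor (SRF), which controls many genes of the actin cytoskeleton, recognises a DNA element called the CArG box. The 9 genes Sept2 and Sept4 to Sept11 were taken as members, with every merged SRF region whose gene assignment by the study's authors names one of them. This gave 23 of the 31850 regions, spread over 8 of the 9 genes; Sept8 was assigned no region. Sept7 was chosen by the peak heights of its start region, so these heights are given as a description.

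The libraries were SRF chromatin immunoprecipitations (ChIP-seq) from whole cornea of untreated mice on a mixed background, aged about 8 weeks. Of the 3 libraries, 1 came from mice with the Dstn-corn1 mutation, a loss of destrin, the actin-depolymerizing protein, 1 from wildtype mice and 1 was input DNA without antibody, whose values were not used here. Genotypes were taken from the sample titles, because the growth protocol names mutant mice for all 3 libraries. The number of mice per library is not given in the sources used. With 1 library per genotype, differences have no replicate check and none was tested. A peak height is the ChIP signal at a region's maximum, in the authors' units, and read depth is unknown. As a check of the labels, all 3 regions at Dstn were listed at 0 in mutant and at 35, 11 and 13 in wildtype. Of 7 cornea marker genes, 5 were assigned a region. The highest regions of the keratin genes Krt12, Krt5 and Krt14 were called in both libraries, with 17, 21 and 38 in mutant and 20, 29 and 35 in wildtype. Those of Lum and Pax6 were called in wildtype only, with 4 and 9 in mutant and 17 and 34 in wildtype. ChIP heights do not measure expression. Whole cornea holds several cell types, and a different share of cells and different binding per cell cannot be told apart.

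Only Sept7, Sept2 and Sept10 had a region within 1 kb of their own start, and the DNA at those starts is shown because it lies under these regions. The windows run from 250 bases before to 50 bases after a RefSeq start (GRCm38.p6, the assembly that mm10 denotes), 5′ to 3′ along the gene. Sept7 has a window at each of 2 starts, chr9:25251741-25252040 and chr9:25252642-25252941, both on the plus strand. Sept2 also has 2 overlapping windows under its region, of which chr1:93478743-93479042 on the plus strand is shown and chr1:93478811-93479110 is not. For Sept10 the window is chr10:59221451-59221750 on the minus strand. Capitals mark an AP-1 motif in the earlier Sept7 window and a CArG box with 1 mismatch in the Sept10 window.
Sept7, earlier start: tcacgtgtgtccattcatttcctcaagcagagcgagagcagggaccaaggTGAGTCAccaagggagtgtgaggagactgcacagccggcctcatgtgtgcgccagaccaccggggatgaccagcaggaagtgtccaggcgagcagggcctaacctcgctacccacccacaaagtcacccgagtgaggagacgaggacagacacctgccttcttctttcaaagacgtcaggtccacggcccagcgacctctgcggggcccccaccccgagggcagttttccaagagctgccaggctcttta
Sept7, later start: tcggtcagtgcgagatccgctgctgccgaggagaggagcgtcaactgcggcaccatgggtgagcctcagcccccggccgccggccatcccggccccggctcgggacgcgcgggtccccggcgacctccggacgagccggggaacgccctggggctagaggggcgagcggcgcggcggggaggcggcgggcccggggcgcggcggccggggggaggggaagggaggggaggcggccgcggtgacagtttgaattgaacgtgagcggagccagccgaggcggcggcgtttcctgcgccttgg
Sept2: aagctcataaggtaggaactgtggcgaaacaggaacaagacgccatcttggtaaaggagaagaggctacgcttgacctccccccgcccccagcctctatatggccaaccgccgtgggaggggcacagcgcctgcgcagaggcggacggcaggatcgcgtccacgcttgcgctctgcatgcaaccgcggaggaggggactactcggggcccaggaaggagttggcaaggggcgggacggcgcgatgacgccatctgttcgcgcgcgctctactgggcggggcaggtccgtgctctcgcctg
Sept10: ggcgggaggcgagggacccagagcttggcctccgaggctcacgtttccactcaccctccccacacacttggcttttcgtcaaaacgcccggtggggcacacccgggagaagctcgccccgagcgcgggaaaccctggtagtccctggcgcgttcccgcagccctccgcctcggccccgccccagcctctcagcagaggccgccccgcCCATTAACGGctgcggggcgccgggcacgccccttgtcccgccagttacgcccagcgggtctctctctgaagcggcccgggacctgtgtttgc

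The septin starts under SRF regions were rich in CpG and held no exact CArG box. Of all regions within 1 kb of an assigned gene start, 84.6% were in a CpG island, so CpG richness was common there. The later Sept7 window had 43 CpG dinucleotides and 77.0% G or C, the earlier one 14 and 60.7%. The Sept2 window shown had 29 and 65.7%, the other Sept2 window 36 and 69.3%, and the Sept10 window 30 and 71.0%. RefSeq windows were matched for 7 of the 9 genes, 16 windows in all, with a median of 18 CpG dinucleotides, against 7 over all 32851 windows. Of these 16 windows, 5 overlapped an SRF region (31.2%), against 23.2% of all windows.

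An exact CArG box, searched on both strands, stood in 0 of the 16 septin windows and in 1.63% of all windows. It also stood in only 1.26% of the windows that overlapped an SRF region. With 1 mismatch allowed, 3 of the 16 held it, at CCATTAACGG in Sept10 and, in windows with no SRF region, GCTTTAATGG in Sept11 and CCTTTTATGA in Sept4. The share was 21.1% of all windows and 15.1% of those that overlapped an SRF region. The AP-1 motif TGANTCA, the site of Fos and Jun factors, occurred at positions 51 to 57 of the earlier Sept7 window. It occurred at 2 places in a Sept9 window with no SRF region, and in 7.81% of all windows and 4.16% of those that overlapped an SRF region. The sequence CCGGAA, a form of the ETS site, was in 0 of the 16 windows and in 14.9% of all windows, and in 33.4% of those that overlapped an SRF region. Other forms of the ETS site were not searched, so their absence cannot be read from this count. TATAAA was in 0 of the 16, in 13.6% of all windows and in 5.33% of those that overlapped an SRF region. A motif match is a description of these letters, and the sequence outside the windows was not searched.

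Sept7, the subunit without which mammalian septin rods are not stably built, carried by far the highest septin region. It lay over the gene start (chr9:25251461-25253746, mm10) and reached 150 in mutant and 293 in wildtype, rank 6 of 31850 in each library. Its average value over the region was 30.5 in mutant and 55.8 in wildtype. The log2 ratio of mutant over wildtype, with 1 added to each height, was -0.96, so the mutant height was 51.2% of the wildtype one.

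The Sept7 start region was long, and its height, the value it was chosen by, stood well above its average. Its length of 2285 bp was matched or exceeded by 56 of all regions (0.176%), whose median length was 627 bp. The height was 4.92 times the average value in mutant and 5.25 times in wildtype, against medians over all regions of 2.14 in mutant and 2.55 in wildtype. Regions of like height shared both traits, as given further on. The summit stood at the same position in both libraries, chr9 25252544, 105 bp past the start the authors list. That position lies between the windows printed above: 553 bp past the earlier RefSeq start and 348 bp before the later one. The AP-1 motif in the earlier window is not under the summit.

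Both other Sept7 regions lay past the end of the gene and were called in wildtype only. The region 57560 bp past the start (chr9:25309721-25310278) reached 20 in mutant and 31 in wildtype (log2 ratio -0.61). Its mutant height was higher than 73.1% of all regions in that library, so a wildtype-only call did not mean a low mutant height. The region 65899 bp past the start (chr9:25318021-25318656) had 12 and 65 (log2 ratio -2.34), the second lowest among the septin regions. So the ratio at Sept7 ranged from a mutant height of 64.5% of wildtype to 18.5% of it within 1 locus. In the wildtype library 65 was higher than 90.7% of all regions, and in the mutant library 12 was higher than 40.8%.

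Of all regions with an assigned gene, the one nearest to the Sept7 start region, by distance in log2 heights over the 2 libraries, was that at Hnrnpa2b1, Cbx3 and Nfe2l3, with 160 in mutant and 303 in wildtype. Dagla followed with 145 and 270, and then the region shared by Kcnk4, Gpr137 and Bad with 166 and 292. These neighbours had log2 ratios of -0.92, -0.89 and -0.81. They were about as long as the Sept7 region, at 2415, 2098 and 2721 bp. Their heights were 5.50, 4.91 and 4.35 times their averages in mutant and 6.25, 5.56 and 5.63 times in wildtype, so length and shape did not set the Sept7 region apart from them.

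**Figure D1:**
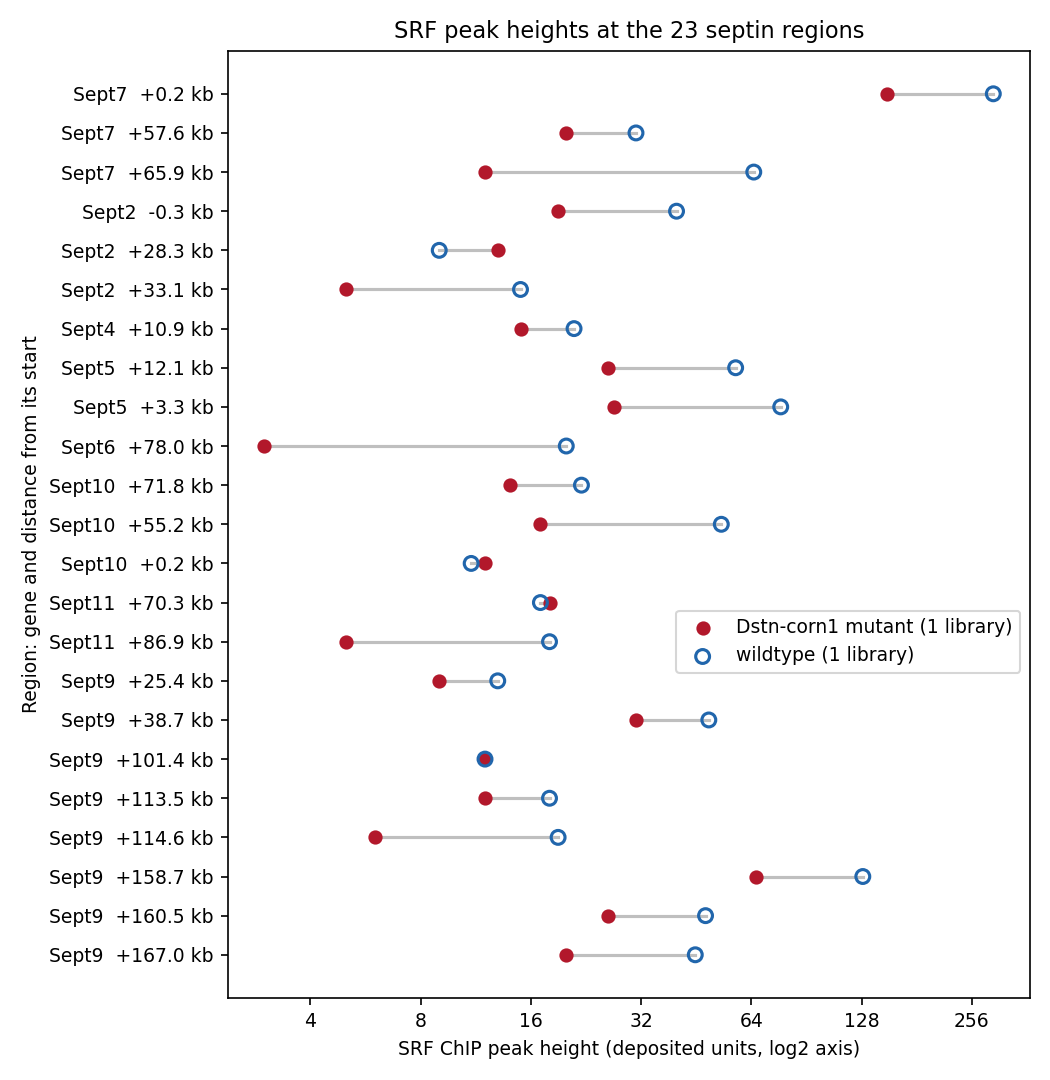
SRF ChIP peak height (deposited units, log2 axis) at each of the 23 septin regions, labelled by gene and distance of the region from the gene's start; filled points are the mutant library and open points the wildtype library. The Sept7 start region reaches 150 in mutant and 293 in wildtype, and the mutant point lies left of the wildtype point at 19 of the 23 regions.

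In the Sept2 subgroup, whose members take the same place in the rod, 6 regions were assigned, and at 4 the mutant height was lower by at least 2-fold. Over all 31850 regions 59.0% were at least 2-fold lower in mutant, so the count is read against that share. By average value the log2 ratios of these 4 regions were -0.88 and -1.09 at Sept2 and -0.83 and -0.78 at Sept5. By that measure 35.5% of all regions were at least 2-fold lower. Sept2, widely expressed and linked to actin and cytokinesis, had a region over its start (chr1:93477964-93479427) with 19 in mutant and 40 in wildtype (log2 ratio -1.04). It is shared with Hdlbp, which encodes the RNA-binding protein vigilin; its centre was 298 bp upstream of Sept2 and 113 bp inside Hdlbp. The summits were 305 bp upstream of the Sept2 start in mutant and 497 bp upstream in wildtype, 192 bp apart.

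Both other Sept2 regions were low and are shared with Farp2, a guanine nucleotide exchange factor gene. The region 28257 bp into Sept2 had 13 in mutant and 9 in wildtype (log2 ratio 0.49), and was called in mutant only. The region past the Sept2 end had 5 in mutant and 15 in wildtype, was called in wildtype only, and lay 14 bp upstream of the Farp2 start.

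Sept5, best known from neurons and platelets, had the highest regions of the Sept2 subgroup. Its region inside the gene (chr16:18626216-18627108), 3276 bp past the start, had 27 in mutant and 77 in wildtype (log2 ratio -1.48). The region past its end (chr16:18617403-18618222) had 26 and 58 (log2 ratio -1.13). Both were called in both libraries, with summits 32 bp apart at each. Both are shared with Gp1bb, the platelet glycoprotein gene next to Sept5, and the region past the end also with 4930588K23Rik.

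Sept4, known for its part in the sperm tail ring, had 1 region (chr11:87591518-87592455), with 15 in mutant and 21 in wildtype and a log2 ratio of -0.46. It lay 10855 bp past the Sept4 start but 231 bp upstream of Mtmr4, a phosphatase gene. Its average value was nearly the same in the libraries, at 7.73 in mutant and 7.93 in wildtype. None of the 4 RefSeq windows of Sept4 overlapped an SRF region, and the nearest region lay from 10457 to 24829 bp away from their starts.

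The Sept6 subgroup, whose members can replace each other in the rod, had wildtype heights below the all-region median of 28 except at 1 region inside Sept10. In mutant the highest of the subgroup was 18, at a Sept11 region. Of its 6 regions, 3 were at least 2-fold lower in mutant, near the share over all regions (59.0%). The Sept10 region that was high in wildtype (chr10:59166282-59166999), 55207 bp into the gene, had 17 in mutant and 53 in wildtype (log2 ratio -1.58). A region deeper in the gene (chr10:59149711-59150387) had 14 and 22 and was called in wildtype only.

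At the Sept10 start, in the region that covers the window printed above, the libraries had nearly equal heights, 12 in mutant and 11 in wildtype (chr10:59221355-59221954). It was called in both libraries and is shared with Sowahc, whose start is 268 bp away. The wildtype height was higher than only 1.78% of all regions and the mutant height higher than 40.8%. The average values went the other way, with 6.95 in mutant and 7.53 in wildtype.

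Sept11 had 2 regions, both far from its start. The region 70294 bp into the gene (chr5:93163488-93164015) had 18 in mutant and 17 in wildtype (log2 ratio 0.08), and was called in both. Its average values were 7.07 in mutant and 7.65 in wildtype. The region past the end, shared with the cyclin gene Ccni, had 5 in mutant and 18 in wildtype (log2 ratio -1.66), and was called in wildtype only. From the RefSeq start of Sept11 to the nearest region the gap was 70072 bp.

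Sept6, on the X chromosome, had 1 low region and Sept8 had none. The Sept6 region (chrX:36911491-36911962) had 3 in mutant and 20 in wildtype (log2 ratio -2.39), the lowest among the septin regions, and was called in wildtype only. It lay 77969 bp past the Sept6 start, near the gene's end, 892 bp past the start of Gm15008 and 8827 bp upstream of Nkrf, with which it is shared. Around Sept8 (chr11:53519397-53549605, GRCm38.p6), no merged region lay inside the gene. The nearest region before it ended 48917 bp away and had 24 in mutant and 68 in wildtype. It was assigned to Gm9837, Sowaha and Shroom1 and lay 365 bp past the start of Gm9837. The nearest region after it began 35138 bp away, at Kif3a, and had 11 in mutant and 48 in wildtype.

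Sept9, a subunit of the longer rods that is made in long and short forms, had 8 of the 23 regions. Only 0.85% of the 16697 genes with a region had as many, and Sept9 is also long, at 162664 bp. None of its regions was near a gene start. The highest (chr11:117357686-117358936), 158650 bp past the start and inside the gene near its end, had 66 in mutant and 129 in wildtype (log2 ratio -0.96). It ranked 187 of all regions in mutant and 409 in wildtype.

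A group of regions stood at the 3′ end of Sept9. Besides the highest, the region at 160514 bp had 26 in mutant and 48 in wildtype, and the region at 166991 bp, past the gene's end, had 20 and 45. These 3 were called in both libraries, with summits from 16 to 32 bp apart between the libraries. The fourth Sept9 region called in both, 38713 bp past the start (chr11:117238042-117238707), had 31 and 49 (log2 ratio -0.64).

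The remaining Sept9 regions were low. The region at 101396 bp had 12 in both libraries and was called in mutant only, with average values of 6.54 in mutant and 6.08 in wildtype. Called in wildtype only were the region at 25371 bp, with 9 in mutant and 13 in wildtype, that at 113480 bp, with 12 and 18, and that at 114560 bp, with 6 and 19. None of the 4 RefSeq windows of Sept9 overlapped a region, and the gap from their starts to the nearest region ran from 17184 to 27539 bp.

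**Figure D2:**
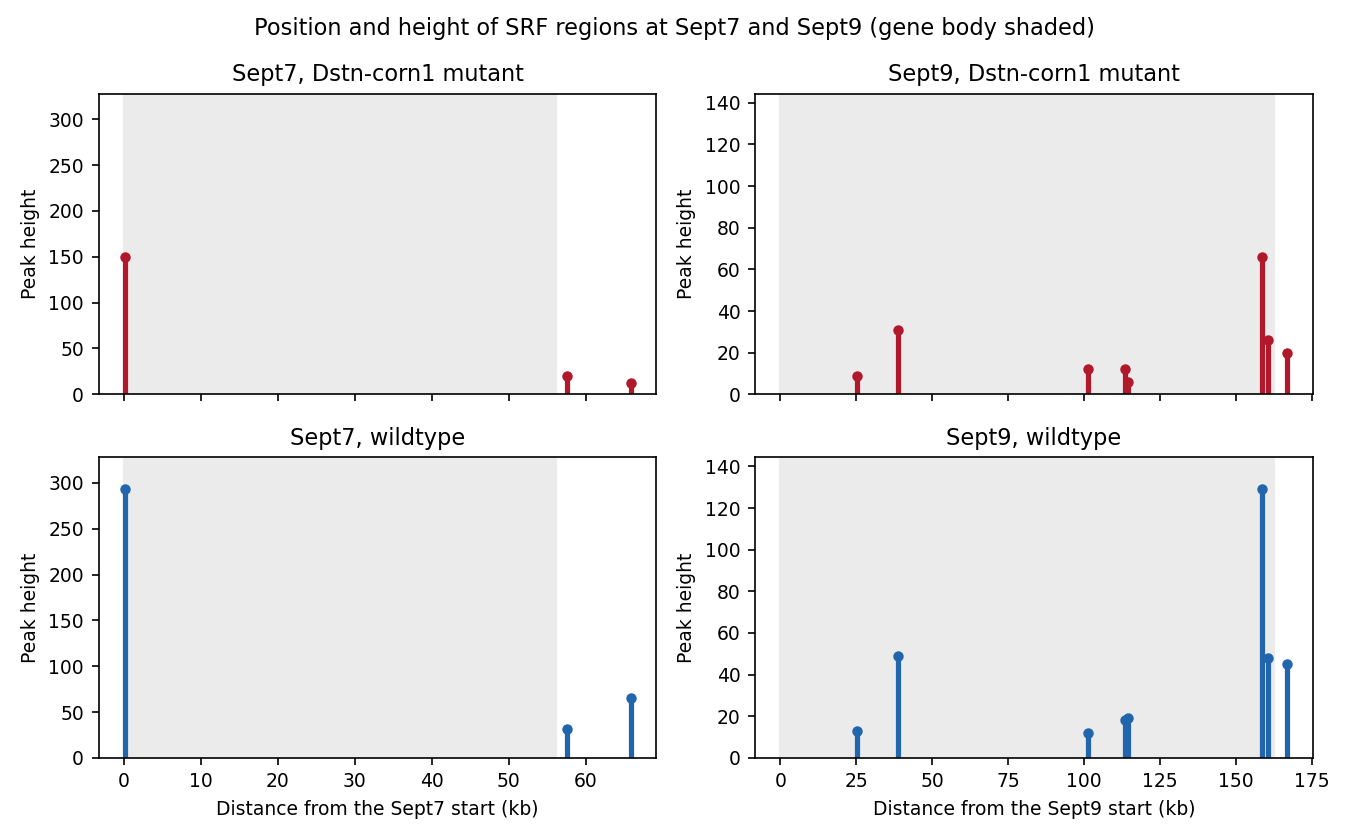
Peak height (deposited units, linear axis) against distance from the gene start in kb for the regions of Sept7 (left) and Sept9 (right), mutant above and wildtype below, with the gene body shaded. Sept7 has its high region at the start (150 in mutant, 293 in wildtype), and Sept9 has its high region near the far end of the gene (66 in mutant, 129 in wildtype).

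Over all 23 regions, heights were lower in mutant at 19, against 95.4% of all regions. Heights were at least 2-fold lower in mutant at 10 regions (43.5%), with 59.0% over all regions, and at least 2-fold higher in mutant at 0, with 0.414% over all regions. The median log2 ratio was -0.96, with a range from -2.39 to 0.49, beside -1.10 over all regions. All septin regions have an assigned gene, and over the 24263 regions that have one 94.7% were lower in mutant and 55.8% at least 2-fold lower, with a median of -1.06. Relative to that overall median, 14 septin regions lay above it and 9 below it. The sources used do not say whether the libraries were scaled to each other. With wildtype heights scaled so that the medians over regions called in both are equal, the median over all regions was -0.09 and that of the septin regions 0.10. With this scaling 2 septin regions were at least 2-fold lower in mutant and 3 at least 2-fold higher, against 7.98% and 3.84% of all regions. Those 3, in Sept2, Sept10 and Sept11, had deposited heights of at most 18 in both libraries. The directions given for single regions hold for the heights as deposited; with this scaling 13 of the 23 were higher in mutant, against 43.5% of all regions, the Sept7 start region and the highest Sept9 region among them.

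The 4 regions that were not lower in mutant as deposited were in Sept2, Sept10, Sept11 and Sept9, and all had heights of at most 18 in both libraries. Over all regions 4.55% were not lower in mutant. Among the 7787 regions with heights of at most 18 in both libraries, a limit chosen after these values were seen, 12.9% were not lower, and 8 septin regions fell in that range. By average value, 2 septin regions were higher in mutant, those called in mutant only, against 4.63% of all regions.

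**Figure D3:**
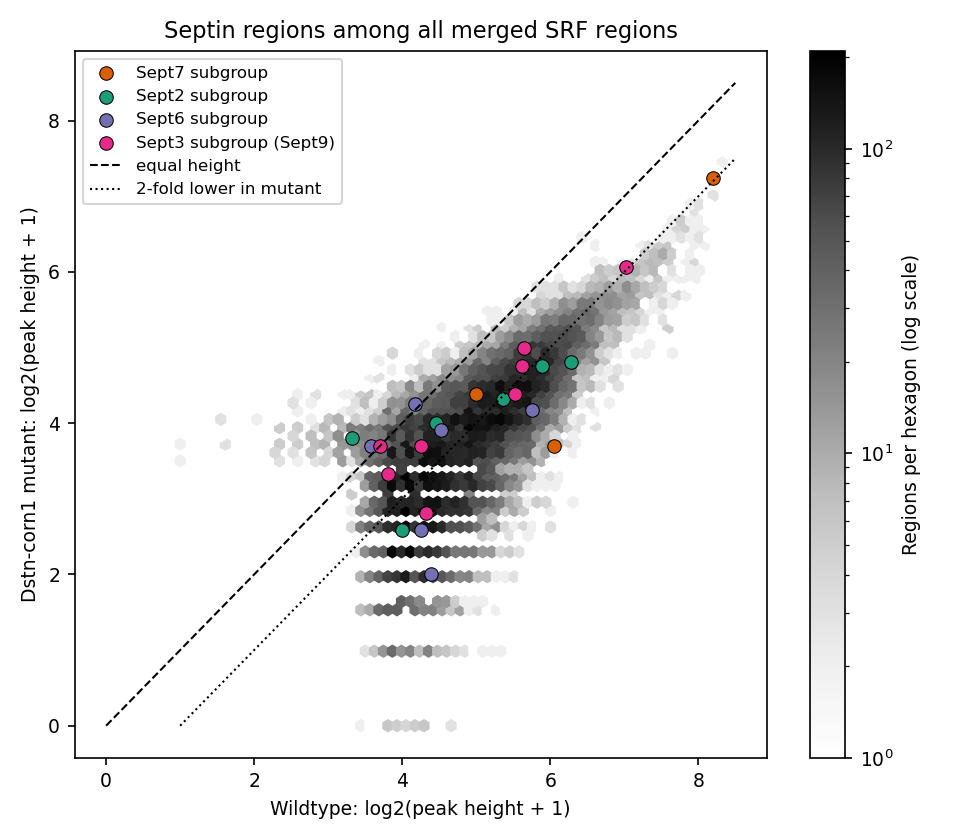
Mutant against wildtype peak height, each as log2(height + 1), for all 31850 merged regions (grey hexagons, darker for more regions) with the septin regions coloured by subgroup; the dashed line marks equal height and the dotted line a 2-fold lower value in mutant. The Sept7 start region sits at the upper right end, and the 4 septin regions on or above the dashed line all have heights of at most 18 in both libraries.

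Both libraries had a call at 12 of the 23 septin regions, only wildtype at 9 and only mutant at 2. Over all regions these shares were 48.9%, 49.0% and 2.10%. Septin regions called in both had median heights of 23 in mutant and 48.5 in wildtype, whereas those called in wildtype only had 9 and 19. The mutant-only pair, in Sept2 and Sept9, had 13 and 12 in mutant and 9 and 12 in wildtype. Across the 12 regions called in both, the summits of the libraries were at most 192 bp apart with a median of 32 bp. Over all 15587 such regions the median was also 32 bp, and the largest gap 2208 bp. At 10 of the 12 the gap was at most 32 bp, against 77.2% of all such regions, the exceptions being the Sept2 and Sept10 start regions.

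Like regions in general, most septin regions lay away from gene starts. Within 1 kb of the start of any assigned gene lay 6 of the 23 (26.1%), against 29.8% of all regions with an assigned gene and 22.7% of all regions, and only 3 of these were at the start of the septin itself. The other 3 were at Farp2, Mtmr4 and Gm15008. CpG islands held 6 of the 23, against 29.4% of regions with an assigned gene and 23.0% of all regions. In all, 9 regions were shared with a total of 9 other genes, and 7 were nearer to the start of another gene than to that of the septin. The 6 regions within 1 kb of a start had a median log2 ratio of -0.998, beside -0.81 for all such regions. The 17 others had -0.86, beside -1.15 for all regions farther from the start of an assigned gene.

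The septin genes outside the member list, Sept1, Sept3, Sept12 and Sept14, had 7 regions, all lower in mutant and 5 of them at least 2-fold, near the shares over all regions (95.4% and 59.0%). Sept3, a brain septin, had the highest wildtype value of these, with 18 in mutant and 52 in wildtype at 8373 bp upstream, shared with 1500009C09Rik, and 15 and 35 at 3527 bp upstream. Sept1 shared its 3 regions with Tbc1d10b and Mylpf, and its highest, also the highest mutant value of these, had 21 in mutant and 49 in wildtype. Sept12, of the sperm tail, had 11 and 24, and Sept14 had 10 and 24 in a region 65 bp past the start of Mrps17.

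Of 16 genes whose products bind septins or act with them in cortical actin and cytokinesis, 15 had a region, all except Racgap1. Taking each gene's region of highest mean height, 7 were at least 2-fold lower in mutant and 0 at least 2-fold higher, against 57.7% and 0.198% of all genes. Their median log2 ratio was -0.96, that of the 8 septin genes by the same rule -0.998, and that of all genes -1.08. Heights were lower in mutant by any amount at all 15 partner genes and at 7 of the 8 septin genes, against 95.9% of all genes. By this rule 8 partner genes were called in both libraries and 7 in wildtype only, against 11495 and 4983 of all 16697 genes.

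The highest partner region was at the start of Kif23, which encodes a kinesin of the dividing cell's midzone, with 58 in mutant and 103 in wildtype, listed at -32 bp and shared with Paqr5. Myh9, a nonmuscle myosin heavy chain gene, had 47 and 83, at 66363 bp from its start. The Cdc42ep genes encode the Borg proteins, Cdc42 effectors that bind septins. Cdc42ep1 had 42 in mutant and 62 in wildtype, the highest ratio of the list at -0.55, and Cdc42ep2 had 22 and 63. Anln, which encodes the actin- and septin-binding protein anillin, had 19 and 64. Myh10, the gene of another nonmuscle myosin heavy chain, had 17 and 62 near its start, the lowest ratio of the list at -1.81. No partner region reached the heights of the Sept7 start region, but that region was chosen for being among the highest of both libraries.

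**Figure D4:**
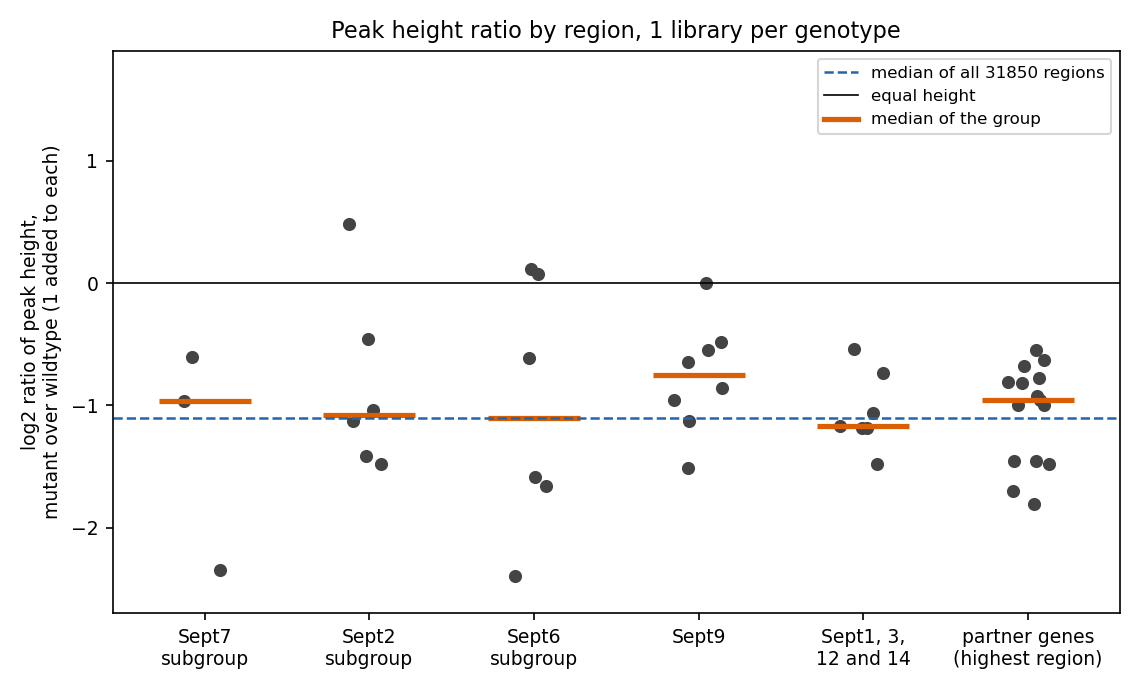
Log2 ratio of peak height, mutant over wildtype with 1 added to each, for each septin region by subgroup, for the regions of Sept1, Sept3, Sept12 and Sept14, and for the highest region of each partner gene; bars are group medians. The dashed line is the median of all regions (-1.10), and the groups spread on both sides of it.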

How the data were processed

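SRF ChIP-seq and input libraries were size-selected at 200 to 300 bp, amplified by 18 PCR cycles and sequenced on the Illumina HiSeq platform, per the labels' protocols. The submitters' processing notes name BWA and mm10. Which caller and threshold gave the intervals, and whether duplicates were removed or libraries scaled, is not given in the sources used. The authors deposited signal values per interval, per merged region (peak and average value for each library, and whether it was called) and per gene. Gene assignments, distances and CpG island counts are the authors'. Listed starts of Sept9 and Sept2 equal a RefSeq 1-based start, while those of Sept7, Sept10, Sept11 and Sept4 differ from it; for regions the counting is not stated.

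Members, lists and rules were chosen with earlier results of these data known. Named were all members with their regions, genes sharing them, the 3 regions nearest to the Sept7 start region in log2 height, Dstn, and the 5 highest and the extreme partner genes. Also named were cornea markers and septins outside the member list and, chosen after their values were seen, the genes flanking Sept8. A ratio is log2((mutant height + 1)/(wildtype height + 1)), so differences of low regions are understated. No count model was used and no p-value computed. Promoter sequences are RefSeq's for GRCm38.p6, matched by symbol. Summits come from the intervals, where 99.2% lie at multiples of 16 bp. The ratio, median and motif steps were tested on simulated data. Alternatives were the average value, a pseudocount of 5, common scaling, a height filter, other region sets, 50% reciprocal overlap, 5 kb distance and 1 motif mismatch. Python 3.11.15, numpy 2.4.6, pandas 2.3.3, scipy 1.17.1 and matplotlib 3.10.9 were used.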

Additional observations from a re-analysis of the deposited data

How the results depend on the processing

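No paired analysis was possible because there was only 1 library per genotype. Common scaling by construction makes the median heights over regions called in both equal. The median ratio was then -0.09 over all regions and turned to 0.10 over septin regions. With this scaling 2 septin regions were at least 2-fold lower in mutant (against 7.98% of all regions), and 4 of 8 septin genes had a lower highest region in mutant. The highest regions of Sept7, Sept4 and Sept9 then turned to 0.10, 0.54 and 0.10, and that of Sept11 turned to -0.10 with the average value. Fewer regions entered with a height of at least 28 in the higher library, which left 11, with 6 at least 2-fold lower (against 68.6% of all such regions) and 2 called in wildtype only (against 25.1%), and with regions called in both, of which 5 were at least 2-fold lower (against 48.2% of all such regions). The median septin ratio was -0.83 with the average value (all regions -0.83) and -0.91 with a pseudocount of 5 (all regions -0.93). Over regions called in both it was -0.96 (all such regions -0.96). It was -1.04 with the height filter (all such regions -1.21) and without Sept9 (all regions -1.10). It was -0.998 with 1 region per gene (all genes -1.08) and within 1 kb of a start (all such regions -0.81). The septin median was thus not above the one over all regions in every setting. At the septin's own start 3 regions lay within 1 kb, and 3 promoter windows held a CArG box with 1 mismatch. The other alternatives for these counts stayed within 1.5 times the count. Region sets without Sept9, called in both or at the septin's own start, and the motif search in promoter windows, were chosen after seeing the data. A motif search over whole regions was not run for lack of sequence outside them. With unknown depth, no limit for low regions can be given.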
